A study of Mus musculus with 4 samples.

Results

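The genes of the TGF-beta and activin axis were examined in cultured hair follicle mesenchymal cells. Members were the rows of the deposited count table whose gene name was Tgfb1, Tgfb2, Tgfb3, Tgfbr1, Tgfbr2, Tgfbr3, Inhba, Ltbp1, Ltbp2 or Tgfbi. All 10 names were found, each once, among 51826 rows, and all 10 were among the 16734 genes compared, those whose raw counts averaged 10 or more.

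The cells were dermal papilla cells (DPCs), from the hair bulb, and dermal sheath cells (DSCs), from the connective tissue around the follicle. Both were grown in serum-containing medium from whisker follicles of C57BL/6J mice that carried an EGFP transgene and were aged 5 to 6 weeks, and the labels give the genotype as WT. The groups were DPCs at passage 3 and at passage 9 and DSCs at passage 3 and at passage 9, called low passage and high passage, and the labels name no further treatment. Each group was 1 library, so that each comparison below set 1 library against 1 and no test was run. A joint fit of passage over both cell types, which would take them as replicates of each other, was not made. How many mice or cultures stood behind a library is not given in the sources used here, and a difference between passages cannot be told apart from one between library preparations.

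TGF-beta ligands are secreted in a latent form, bound to their own propeptide and, through it, to a latent TGF-beta binding protein that holds the complex in the extracellular matrix. The released ligand binds a pair of serine/threonine kinase receptors, which phosphorylate Smad2 and Smad3 and thereby turn on matrix, contractile and feedback genes. Activins, dimers of inhibin beta subunits, reach the same Smads through receptors of their own and are held back by follistatins. In the hair follicle, TGF-beta2 from the dermal papilla is known to act on the epithelial stem cells above it.

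Total counts were between 34981284 and 47604059 per library. The members had 184 counts or more in each, the lowest being Tgfbi in high-passage DPCs. Levels within a gene are given in CPM (counts scaled to a common library size, here with TMM, a method that corrects for composition), and a difference is the log2 of the ratio of 2 libraries with its 95% counting interval (exact Clopper-Pearson, from the share of one library in the counts of both). PCR duplicates and counting of both mates of a pair are not covered by such an interval. With counts halved, 6 of 40 member intervals included 0, against 4 as deposited.

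The labelled cell types were checked against marker genes. Sox2, a papilla transcription factor, had 45.6 CPM in low-passage DPCs and 41.5 in high-passage DPCs, against 7.09 and 3.91 in DSCs. Other papilla markers did not all follow the label. Ncam1 had 99.0 and 46.6 CPM in low- and high-passage DPCs, against 310 and 342 in DSCs. Lef1 had 508 and 2 counts in low- and high-passage DPCs, against 101 and 55 in DSCs. Crabp1 had 609 and 406 CPM in low- and high-passage DPCs, against 40.0 and 448 in DSCs. Over the whole list of 12 papilla markers the cell types overlapped, with summed levels of 881 and 593 CPM in low- and high-passage DPCs and 501 and 861 in DSCs. Some defining papilla markers were near or at 0: Alpl had at most 23 counts, Lepr at most 18 and Corin at most 10 in a library, and Wif1 had 0 in all, which allows up to 3 counts. The 6 sheath markers did not separate the cell types either, with summed levels of 9431 and 3492 CPM in low- and high-passage DPCs and 7477 and 6514 in DSCs. Most of each sum was Acta2, and Des had at most 11 counts. At passage 3, Itga8 (186 against 44.1 CPM) and Myh11 (78.3 against 28.0 CPM) were higher in DPCs than in DSCs, against the label. Of 8 keratinocyte markers 4 were at 0 in every library, Krt5 and Krt14 among them, and 4 of 5 melanocyte markers were at 0 as well. The keratinocyte list summed to 52.7 CPM in high-passage DSCs and to 2.34 to 6.44 in the others, through Dsp, a desmosome gene, with 2307 counts. The summed level of 7 Schwann markers was 12.6 CPM in low-passage and 3.65 in high-passage DPCs, and 31.7 and 5.29 in DSCs, with Sox10, Ngfr and Cdh19 at 0 in both high-passage libraries. The 8 immune markers summed to 123 and 65.5 CPM in DPCs and 175 and 95.3 in DSCs. The 8 proliferation markers summed to 675 and 149 CPM in DPCs and 566 and 222 in DSCs. The Schwann, immune and proliferation lists were lower at high passage in both cell types. The part of any marker list in the values below was not tested. Fewer cells of a type and less RNA per cell cannot be told apart in such libraries.

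**Figure D1:**
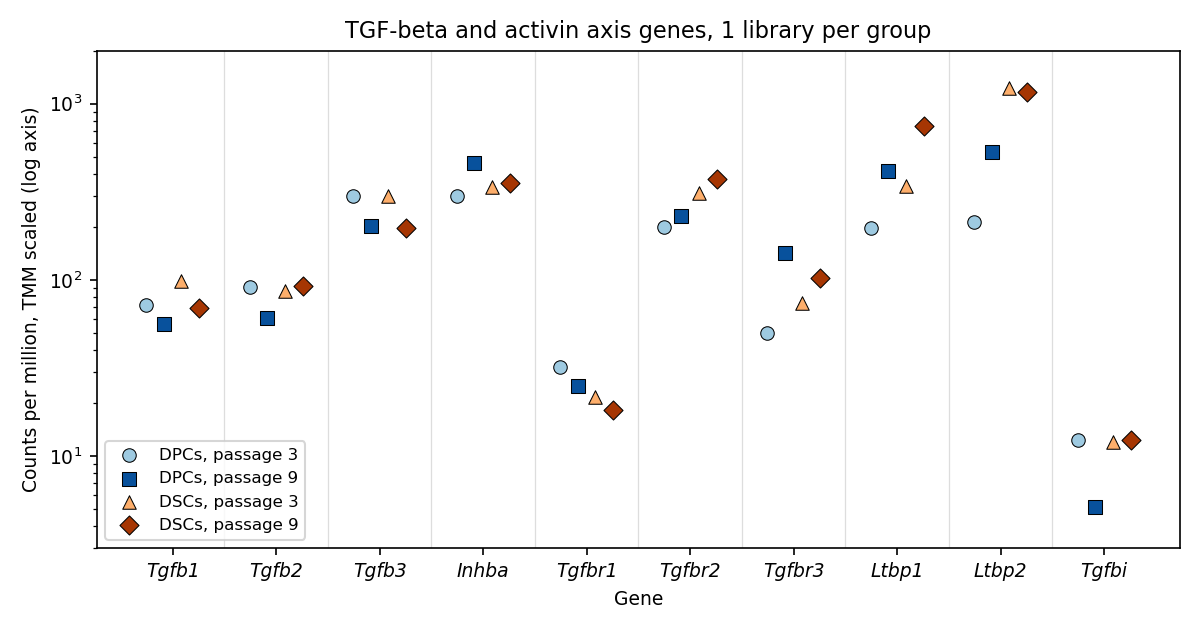
Level of each of the 10 genes in CPM (log axis) in the 4 libraries, 1 point per library. The DSC points of Ltbp2 (1223 and 1166 CPM) lie above its DPC points (214 and 534 CPM), and the points of Tgfb3 pair by passage.

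Gene positions are given as in the files, whose coordinates match GRCm38. Among the member ligands, Tgfb3 and Inhba had the higher levels on the FPKM scale described below. No member ligand differed as much as 2-fold between any libraries compared. Of 5 other ligand genes compared, 2 were at least 2-fold higher and 1 lower with passage in DPCs (16.1% and 15% of all genes compared). In DSCs 2 were higher and 0 lower (8.55% and 6.21%). Tgfb1 (ENSMUSG00000002603, chromosome 7, 25687002 to 25705077, plus strand) encodes the ligand best known from wound repair. It had 71.7 and 56.4 CPM in DPCs of passages 3 and 9, against 98.4 and 69.0 in DSCs. Both high-passage libraries were below the low-passage library of the same cell type, by a log2 difference of -0.35 (interval -0.43 to -0.26) in DPCs and -0.51 (-0.58 to -0.44) in DSCs. Low-passage DPCs and high-passage DSCs, neighbours in the order, did not differ beyond counting error.

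Tgfb2 (ENSMUSG00000039239, chromosome 1, 186622792 to 186705989, minus strand) had 90.9 CPM in DPCs at passage 3 and 60.4 at passage 9, and in DSCs 86.5 and 92.2. High-passage DPCs stood below the others, which lay close together. The log2 difference with passage was -0.59 (-0.67 to -0.51) in DPCs and 0.09 (0.03 to 0.16) in DSCs, and the latter interval included 0 with halved counts.

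Tgfb3 (ENSMUSG00000021253, chromosome 12, 86056745 to 86079041, minus strand) had 298 and 202 CPM in low- and high-passage DPCs and 299 and 196 in low- and high-passage DSCs. The cell types gave nearly the same level at each passage, and both intervals between them included 0. At high passage the gene was lower by a log2 difference of -0.56 (-0.61 to -0.52) in DPCs and -0.61 (-0.65 to -0.57) in DSCs. Of its exonic bases, 12.4% are shared with genes on the opposite strand, which had at most 17 counts in a library.

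Inhba (ENSMUSG00000041324, chromosome 13, 16011851 to 16031621, plus strand) encodes the inhibin beta A subunit, whose homodimer is activin A. It had 300 and 463 CPM in DPCs of passages 3 and 9, against 337 and 356 in DSCs. High-passage DPCs stood above the others. The log2 difference with passage was 0.62 (0.59 to 0.66) in DPCs and 0.08 (0.05 to 0.11) in DSCs.

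Levels of different genes can be compared only per length, for which the deposited FPKM values (fragment counts divided by transcript length and by library depth) were used. Among the TGF-beta ligands, Tgfb3 made up 61.9% of the summed FPKM in low-passage DPCs and 59.8% at high passage, and the corresponding shares in DSCs were 57.6% and 52.6%. Tgfb1 was next in every library, with 23.6% to 29.7%. With counts divided by exonic length instead, Tgfb1 had 12.1% to 15.9%. It was then below Tgfb2 in low-passage DPCs and high-passage DSCs, while Tgfb3 kept the top share in every library. Of the summed FPKM, Tgfb2 had 14.4% and 13.6% in low- and high-passage DPCs and 12.7% and 18.2% in DSCs. Its share was thus highest in high-passage DSCs. The summed FPKM of these ligands was 131 and 91.1 in low- and high-passage DPCs and 133 and 93.7 in DSCs, lower at high passage in both. No interval is given for FPKM values.

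**Figure D2:**
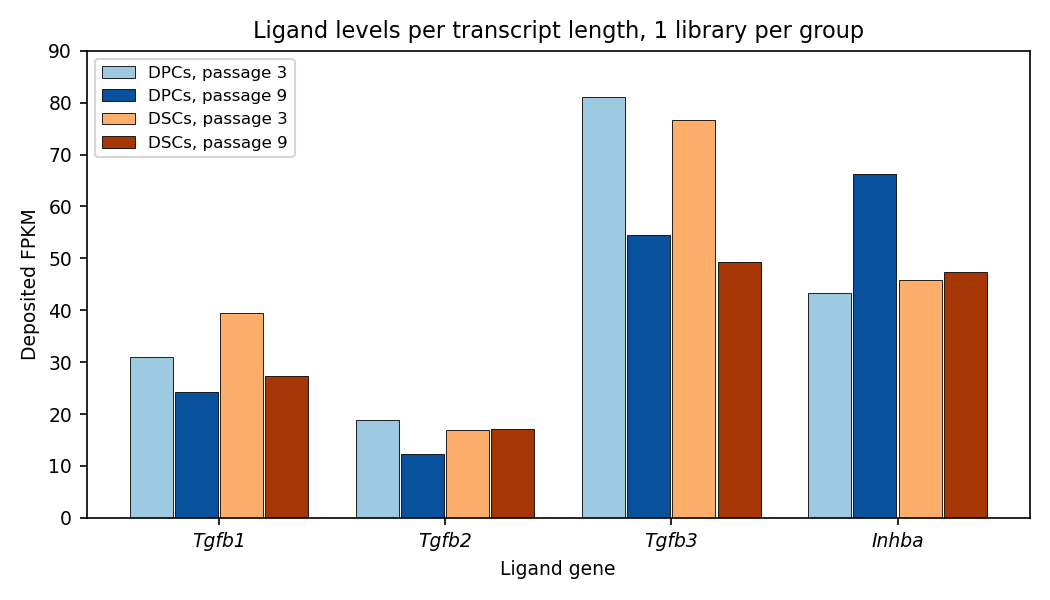
Deposited FPKM of the ligand genes (bars from 0), 1 bar per library and no error bar because each group had 1 library. Tgfb3 is lower in both high-passage libraries (54.5 and 49.3 against 81.0 and 76.6 FPKM), whereas Inhba is highest in high-passage DPCs at 66.3 FPKM.

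Among the receptors, Tgfbr3 differed more with passage than the signalling receptors did in both cell types, whereas between cell types Tgfbr2 differed more than Tgfbr3 at either passage. Tgfbr1 (ENSMUSG00000007613, chromosome 4, 47353222 to 47414931, plus strand) encodes the type I receptor kinase. Its level was 32.1 CPM in DPCs at passage 3 and 25.1 at passage 9, and in DSCs 21.6 and 18.2. Both DPC libraries were above both DSC libraries, with a log2 difference of DPCs over DSCs of 0.57 (0.44 to 0.70) at passage 3 and 0.46 (0.33 to 0.60) at passage 9. With passage it was -0.36 (-0.48 to -0.23) in DPCs and -0.25 (-0.39 to -0.11) in DSCs.

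Tgfbr2 (ENSMUSG00000032440, chromosome 9, 116084293 to 116175360, minus strand) encodes the type II receptor, which binds ligand first. It had 201 and 231 CPM in low- and high-passage DPCs and 309 and 376 in DSCs, in the reverse cell type order of Tgfbr1. DPCs were lower than DSCs by a log2 difference of -0.62 (-0.67 to -0.58) at passage 3 and -0.71 (-0.74 to -0.67) at passage 9. The difference with passage was 0.20 (0.16 to 0.25) in DPCs and 0.28 (0.25 to 0.32) in DSCs.

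Tgfbr3 (ENSMUSG00000029287, chromosome 5, 107106570 to 107289629, minus strand) encodes betaglycan, a co-receptor that presents TGF-beta2 and also binds inhibin. It had 49.6 and 142 CPM in DPCs of passages 3 and 9, against 73.7 and 102 in DSCs. High passage was above low passage in both cell types. In DPCs the gene was 2.86-fold higher at passage 9, a log2 difference of 1.52 (1.44 to 1.60), and in DSCs the difference was 0.46 (0.40 to 0.53). DPCs were thus below DSCs at passage 3, by -0.57 (-0.66 to -0.49), and above them at passage 9, by 0.48 (0.42 to 0.54).

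The latent TGF-beta binding proteins varied most among the members. The range of log2 CPM over the libraries was 2.52 for Ltbp2 and 1.93 for Ltbp1, against 0.61 to 1.52 for the others. Because these genes carried the larger differences, the 250 bases before each of their annotated starts are shown, 5′ to 3′ on the gene's strand (RefSeq, GRCm38.p6). Capitals mark the core Smad motif CAGAC on either strand (CAGAC or GTCTG). Ltbp1 has 2 annotated starts, and the counts pool the transcripts of both.
Ltbp1, upstream start (chr17:75005279-75005528, plus strand): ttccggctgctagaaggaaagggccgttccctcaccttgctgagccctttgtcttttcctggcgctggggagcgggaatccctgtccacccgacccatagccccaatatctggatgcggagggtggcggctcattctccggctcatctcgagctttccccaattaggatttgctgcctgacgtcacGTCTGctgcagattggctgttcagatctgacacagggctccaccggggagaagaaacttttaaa
Ltbp1, downstream start (chr17:75178531-75178780, plus strand): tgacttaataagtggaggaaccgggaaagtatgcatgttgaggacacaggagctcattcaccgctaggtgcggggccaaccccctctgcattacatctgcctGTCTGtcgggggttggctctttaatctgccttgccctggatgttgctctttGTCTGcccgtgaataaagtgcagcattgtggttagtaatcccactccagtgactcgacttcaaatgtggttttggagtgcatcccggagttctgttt
Ltbp2 (chr12:84876492-84876741, minus strand): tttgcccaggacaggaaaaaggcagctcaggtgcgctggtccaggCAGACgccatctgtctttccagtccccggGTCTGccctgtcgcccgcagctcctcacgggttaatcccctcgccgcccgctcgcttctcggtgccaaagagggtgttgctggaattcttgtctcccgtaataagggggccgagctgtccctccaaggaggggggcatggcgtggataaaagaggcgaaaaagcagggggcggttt

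The core motif was found 1 time before the upstream start of Ltbp1, 2 times before its downstream start and 2 times before Ltbp2. Of 32851 such windows over the genome, 42.2% hold it. No window of a member held the palindrome GTCTAGAC or the AP-1 motif TGACTCA, both searched on both strands and found in 0.167% and 4.46% of all windows. Windows were matched by symbol for 8 of the 10 members, 10 windows in all. In the annotation of the files Ltbp2 begins slightly upstream of the RefSeq start, inside the window shown. A match in letters is a description and not a site of binding.

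Ltbp1 (ENSMUSG00000001870, chromosome 17, 75005568 to 75392512, plus strand) encodes a protein that binds the latent TGF-beta complex and anchors it to fibrillin microfibrils. It had 198 CPM in DPCs at passage 3 and 414 at passage 9, and in DSCs 341 and 752. High passage was above low passage in both cell types, by nearly the same ratio, and DSCs were above DPCs at either passage. The gene was 2.09-fold higher at passage 9 in DPCs (log2 1.07, 1.03 to 1.11) and 2.21-fold higher in DSCs (1.14, 1.11 to 1.17). It was the one member at least 2-fold apart with passage in both cell types. DPCs were lower than DSCs by -0.79 (-0.83 to -0.74) at passage 3 and -0.86 (-0.89 to -0.83) at passage 9.

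Ltbp2 (ENSMUSG00000002020, chromosome 12, 84783212 to 84876532, minus strand) belongs to the same family by structure, but its protein does not bind latent TGF-beta and is known from elastic fibres and microfibrils. It had 214 and 534 CPM in DPCs of passages 3 and 9, against 1223 and 1166 in DSCs. Both DSC libraries were above both DPC libraries. At passage 3 it was 5.72-fold lower in DPCs than in DSCs, a log2 difference of -2.52 (-2.55 to -2.48), and at passage 9 it was 2.18-fold lower, a difference of -1.13 (-1.15 to -1.10). With passage it was 2.5-fold higher in DPCs (log2 1.32, 1.28 to 1.36) and nearly level in DSCs (-0.07, -0.09 to -0.05). An antisense gene, D030025P21Rik, shares 9.34% of its exonic bases and had 110 to 257 counts in a library, against 7861 to 53144 for Ltbp2.

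Tgfbi (ENSMUSG00000035493, chromosome 13, 56609603 to 56639339, plus strand) encodes a secreted matrix protein first found as a TGF-beta induced gene. Its level was low, with 12.2 CPM in DPCs at passage 3 and 5.13 at passage 9, and in DSCs 11.9 and 12.2. High-passage DPCs stood below the other libraries, which did not differ from each other beyond counting error. The gene was 2.37-fold lower at passage 9 in DPCs (log2 -1.25, -1.51 to -1.0), and in DSCs the difference was 0.04 (-0.15 to 0.22). In DPCs at passage 9 it was also below DSCs, by -1.24 (-1.5 to -1.01).

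**Figure D3:**
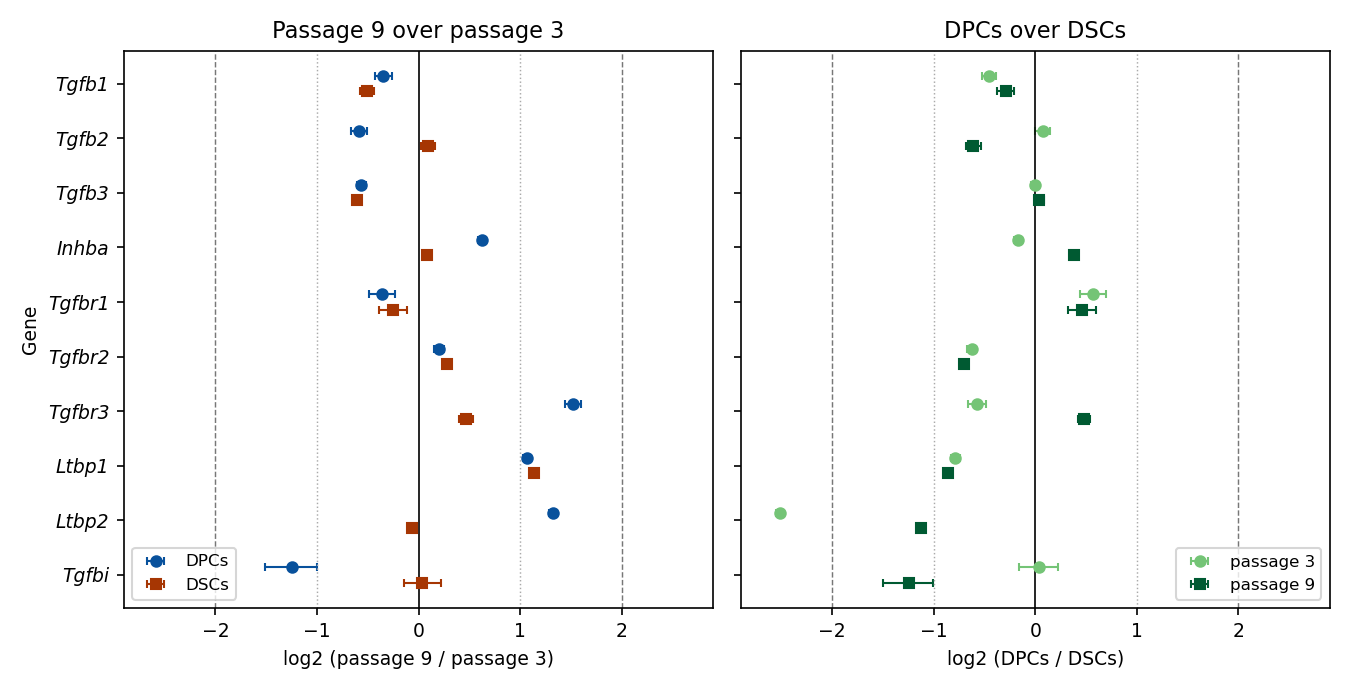
Log2 differences of the 10 genes between passages (left, DPCs circles and DSCs squares) and between cell types (right, passage 3 circles and passage 9 squares), with bars for the 95% counting interval, dotted lines at 2-fold and dashed lines at 4-fold. Ltbp1 lies to the right of 0 in both cell types on the left (1.07 and 1.14), and Ltbp2 at passage 3 is the one point past 4-fold (-2.52).

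Counted over the members, 0 of 10 were at least 4-fold apart with passage in DPCs, where 9.94% of all genes compared were, and 0 of 10 in DSCs, where 3.82% were. At 2-fold, 3 of 10 were higher and 1 lower at passage 9 in DPCs, against 16.1% and 15% of all genes compared. Together 4 of 10 were past 2-fold beside 31.1% of all genes compared, a share near the background. In DSCs 1 of 10 was higher and 0 lower, against 8.55% and 6.21% (14.8% in either direction). Between cell types at passage 3, 1 of 10 was at least 4-fold lower in DPCs (2.77% of all genes compared) and 0 higher (1.52%, and 4.3% in either direction). The same gene, Ltbp2, was the one member past 2-fold there, where 5.43% of all genes compared were higher and 7.86% lower (13.3% together). At passage 9, 0 of 10 were past 4-fold (6.42% of genes compared, in either direction) and 2 of 10, Ltbp2 and Tgfbi, were at least 2-fold lower in DPCs (11% of genes compared, with 9.11% higher and 20.1% together). The median log2 difference of the members was -0.07 in DPCs and 0.06 in DSCs with passage, beside 0.03 and 0.0031 over all genes compared. Each library entered a passage and a cell type comparison, so these comparisons share libraries.

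Other genes of the pathway were taken from a list of 73, of which 63 were among the genes compared. With passage in DPCs, 1 of the 63 was at least 4-fold higher and 3 lower, against 5.58% and 4.36% of all genes compared. At 2-fold, 7 of 63 were higher and 22 lower, against 16.1% and 15%. In DSCs 2 were at least 4-fold higher and 0 lower, against 2.67% and 1.16%. At 2-fold in DSCs, 7 of 63 were higher and 4 lower, against 8.55% and 6.21%. Their median was -0.48 in DPCs and -0.15 in DSCs, beside 0.03 and 0.0031 over all genes compared.

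**Figure D4:**
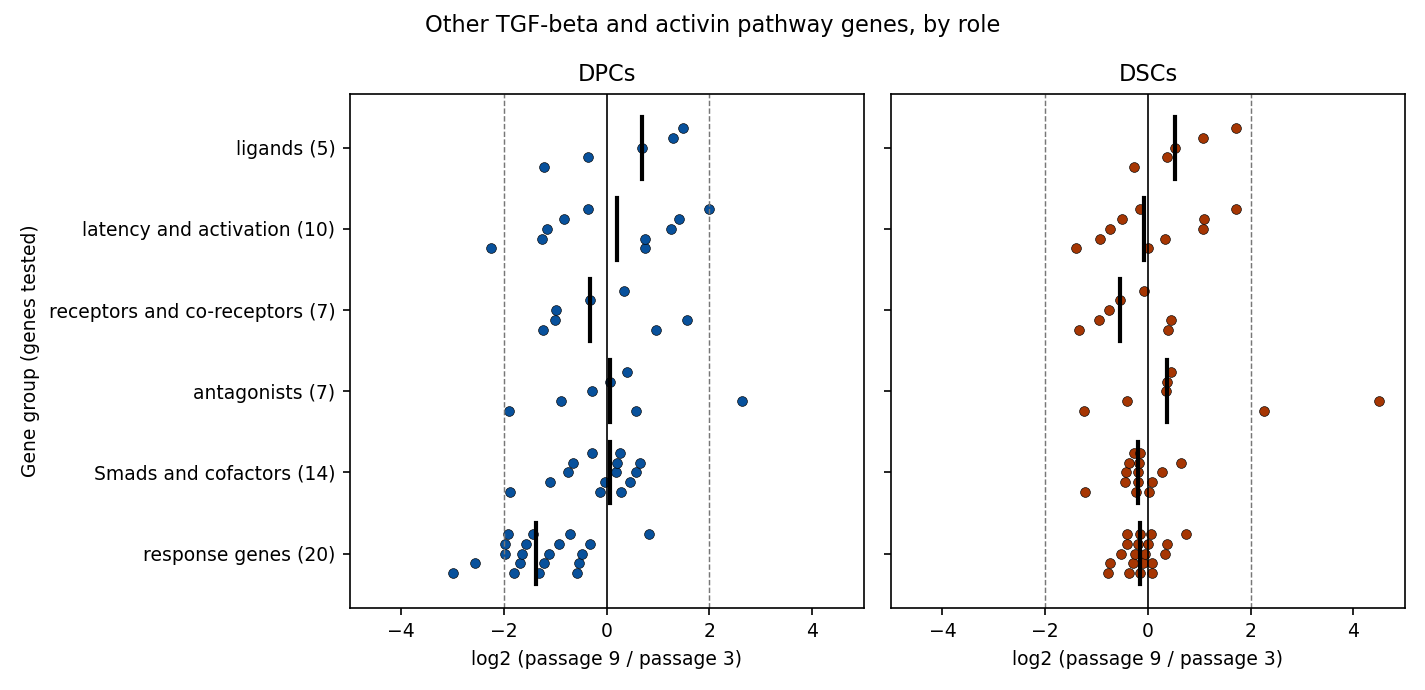
Log2 difference of passage 9 over passage 3 for 63 other pathway genes by role, 1 point per gene, in DPCs (left) and DSCs (right), with black bars for group medians and dashed lines at 4-fold. The 20 response genes have a median of -1.37 in DPCs and of -0.16 in DSCs.

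Response genes, which code for matrix, contractile and other products induced by TGF-beta, stood below 0 in DPCs. Of 20, 19 were lower at passage 9, 13 by at least 2-fold (15% of all genes compared) and 2 by at least 4-fold (4.36%), with a median of -1.37. In DSCs 13 of the 20 were lower and 0 were past 2-fold, with a median of -0.16. At passage 9 all 20 were lower in DPCs than in DSCs, 15 by 2-fold (11% of all genes compared) and 6 by 4-fold (3.91%). At passage 3, 12 of 20 were lower, 3 by 2-fold (7.86%) and 1 by 4-fold (2.77%). The list holds genes that also mark fibroblasts (Col1a1, Col1a2, Col3a1) and the sheath (Acta2, Tagln). The 8 fibroblast markers summed to 17556 and 6489 CPM in low- and high-passage DPCs and to 25992 and 23466 in DSCs, a sum made mostly of these collagens. The other fibroblast markers did not go one way in DPCs: Pdgfra had 304 CPM at low and 811 at high passage, Dcn 116 and 153, Thy1 256 and 91.4, and Vim 1888 and 1440, while Lum had at most 8 counts there. The part of cell makeup or of proliferation in the response genes was not tested.

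Ccn2, a matricellular growth factor, had 2035 and 513 CPM in low- and high-passage DPCs and 3360 and 3370 in DSCs. Its log2 difference with passage was -1.99 (-2.01 to -1.97) in DPCs, and in DSCs it was 0.0043 with an interval that included 0. Its level was thus lowest in high-passage DPCs.

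Col1a1, the alpha 1 chain of type I collagen, differed with passage in DPCs by -2.57 (-2.59 to -2.56), and Col3a1, the chain of type III collagen, by -3.0 (-3.04 to -2.96). In DSCs these differences were -0.37 and 0.38. Fn1, fibronectin, had 9317 and 2358 CPM in low- and high-passage DPCs, a difference of -1.98, and 19124 and 16786 in DSCs, a difference of -0.19. Itga11, the alpha subunit of a collagen receptor, differed by -1.81 in DPCs and -0.16 in DSCs with passage. Comp, a cartilage matrix protein also made by tendon, separated the cell types instead, with 1.79 and 3.23 CPM in DPCs and 80.7 and 101 in DSCs.

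Of 14 Smads and their cofactors, 0 were past 4-fold with passage in either cell type (9.94% of all genes compared in DPCs and 3.82% in DSCs). At least 2-fold lower were 2 of 14 in DPCs (15% of all genes compared) and 1 in DSCs (6.21%), shares near the background. Their median was 0.07 in DPCs and -0.20 in DSCs. The feedback genes did not move together. Smad7, the inhibitory Smad, had a log2 difference of -0.67 (-0.81 to -0.53) with passage in DPCs, whereas that in DSCs was 0.65 (0.51 to 0.79). Skil, which encodes the corepressor SnoN, differed by 0.25 and -0.20, and Pmepa1, a membrane protein that sequesters receptor Smads, by -0.03 (-0.07 to 0.0075) and -0.18 (-0.22 to -0.15).

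Secreted antagonists and matrix proteins that bind the ligands came next. At least 4-fold higher with passage were 1 of 7 in DPCs (5.58% of all genes compared) and 2 of 7 in DSCs (2.67%). At least 4-fold lower were 0 in either cell type (4.36% and 1.16%). Fst, follistatin, the secreted binder of activin, had 13.3 and 3.51 CPM in DPCs of passages 3 and 9, against 8.17 and 11.1 in DSCs. Its log2 difference with passage was -1.90 (-2.21 to -1.63) in DPCs and 0.44 (0.24 to 0.65) in DSCs. Fstl3, a related binder, had 75.5 and 79.1 CPM in DPCs and 101 and 132 in DSCs, with DSCs above DPCs at either passage.

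Aspn, asporin, a small leucine-rich protein, was the one tested pathway gene at least 4-fold higher with passage in both cell types, with 307 and 1902 CPM in DPCs of low and high passage and 156 and 748 CPM in the DSC libraries. These are log2 differences of 2.63 (2.60 to 2.66) and 2.26 (2.22 to 2.30). Dcn, decorin, went from 86.8 to 1965 CPM in DSCs, a difference of 4.50 (4.45 to 4.55), and from 116 to 153 CPM in DPCs, a difference of 0.39 (0.34 to 0.45). Fmod, fibromodulin, had 28.2 and 23.0 CPM in low- and high-passage DPCs and 1833 and 775 in DSCs, and the difference of DPCs over DSCs was -6.02 (-6.11 to -5.94) at passage 3. Fbn1, the microfibril protein to which the latent binding proteins attach, differed with passage in DPCs by -2.25 (-2.27 to -2.23) and in DSCs by -0.75 (-0.76 to -0.73). Fbn1 and Ltbp1 thus differed in opposite directions with passage in both cell types.

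The genes whose profile over the 4 libraries lay nearest to those of Ltbp1 and Ltbp2 were taken from 12192 genes whose raw counts averaged 100 or more, by the Euclidean distance between mean-centred log2 CPM. For Ltbp1 they were Fzd5 at 0.08, Irgm2 at 0.16, Drp2 at 0.17, Il4ra at 0.19 and Btbd11 at 0.19. For Ltbp2 they were Slfn2 at 0.17, Fgl2 at 0.30, Sema7a at 0.32, Emilin2 at 0.34 and Hlx at 0.34. Over 4 points such distances are a description only.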

How the data were processed

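RNA was sequenced from 4 libraries, 1 per group. Per the study's methods, poly-T selected mRNA was read as paired ends. The submitters' processing notes name Bowtie 0.12.2 and the builds mm8 and mm9, with no role stated; the counting program is not given in the sources used here. Positions in the tables were compared with GENCODE M21 (GRCm38): of 51826 IDs 51633 were found, 94.2% with an identical position. The authors deposited raw counts per gene, not normalized, and FPKM values, which they scaled for transcript length and depth.

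From the counts, TMM factors and log2 CPM (prior count 2) were computed with edgeR 4.0.16 in R 4.3.3 for genes whose raw counts averaged 10 or more. Genes were called at 4-fold, the threshold in the study's text, and described at 2-fold. Intervals were exact Clopper-Pearson at 95% and cover counting error only. With 1 library per group no test was run, and cell types were not taken as replicates of each other. Alternatives were total counts, DESeq2 1.42.0 size factors, upper-quartile scaling, prior counts of 0.5 and 10, no filter, a minimum average of 100, FPKM with pseudocounts of 0.1 and 1, and halved counts. The calculations were tested on simulated data.

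The members and lists were chosen with earlier results of these data known. Of the other pathway genes, those past 4-fold in any comparison with at least 100 counts in a library are named (at most 12), with Fst, Fstl3, Ccn2, Smad7, Skil and Pmepa1; 1 further gene of this rule is not reported here. Nearest profiles are given for the 2 members with the widest range.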

Additional observations from a re-analysis of the deposited data

Results flagged for a closer look

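Some genes differed with passage in opposite directions in DPCs and DSCs, with both counting intervals off 0. Each group was 1 library, and the difference between the cell types was not tested for any of them. The log2 difference in DPCs minus that in DSCs was -0.68 for Tgfb2 and 1.39 for Ltbp2. Among the other pathway genes named, it was -2.34 for Fst, -1.31 for Smad7, 0.45 for Skil and -3.38 for Col3a1. The value in DSCs was close to 0 for Tgfb2 (0.09) and Ltbp2 (-0.07). With total counts in place of TMM it was 0.06 for Tgfb2, with an interval that included 0, and -0.10 for Ltbp2.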

How the results depend on the processing

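Over the members, the count past 4-fold held in each comparison under every other scaling, prior count, filter and FPKM pseudocount tried. With a threshold of 2-fold it became 4 of 10 with passage in DPCs and 1 of 10 in DSCs. Between cell types at passage 9 it became 2 of 10. For the other pathway genes this threshold gave 29, 11, 7 and 27 of 63, in the order DPCs, DSCs, passage 3 and passage 9. In that order, 31.1%, 14.8%, 13.3% and 20.1% of all genes compared were past 2-fold. With total counts, 6 of 63 other pathway genes were past 4-fold with passage in DPCs (1 higher and 5 lower), against 4 with TMM (1 and 3). Without a filter it was 8 of 69 (2 higher and 6 lower), beside 1544 higher and 1078 lower of 27339 genes. The number of members that differed in opposite directions, with both intervals off 0, was 1 with total counts, against 2 with TMM. With either FPKM pseudocount it was 3, but there signs alone were counted, because FPKM values have no interval. By sign alone Tgfbi (-1.25 in DPCs and 0.04 in DSCs) was also opposite with TMM, so the FPKM count follows another rule. With counts per kilobase of exonic length in place of FPKM, the share of Tgfb3 was 74.6% and 73.4% in low- and high-passage DPCs and 71.9% and 66.2% in DSCs. That of Tgfb1 was 12.1%, 13.8%, 15.9% and 15.6%, and that of Tgfb2 in DPCs was 13.3% and 12.8%; the cause was not tested. Among 40 member values, the one sign change was that of Tgfb3 between cell types at passage 3, whose interval includes 0; it came with total counts, DESeq2 size factors, upper-quartile scaling, no filter and both FPKM pseudocounts. With FPKM and a pseudocount of 1, the share of higher genes among all those past 4-fold between cell types was 46.9% at passage 3 and 50.2% at passage 9, against 35.5% and 39.0%. Pairing by replicate number was not possible because each group held 1 library and the groups share fewer than 2 replicate numbers. Another pairing, of the passages within cell types with the cell types as replicates, was not run.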

Other observations

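Ratios of deposited FPKM within a library set the members beside each other; they were chosen after the values were seen, and each rests on 1 library per group. Inhba over Fst, the activin subunit over its secreted binder, was 8.29 and 48.4 in low- and high-passage DPCs and 15.1 and 11.7 in DSCs. With Fstl3 added to Fst the ratio was 1.01 and 1.65 in DPCs and 0.934 and 0.756 in DSCs. Fst itself had 5.22 and 1.37 FPKM in DPCs and 3.03 and 4.05 in DSCs. Tgfbr2 over Tgfbr1 was 4.77 and 7.15 in DPCs and 11.2 and 15.8 in DSCs, higher in DSCs at either passage. Ltbp1 over the summed Tgfb ligands was 0.283 and 0.838 in DPCs and 0.451 and 1.39 in DSCs, higher at high passage in both.

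Ltbp3, a family member that binds latent TGF-beta and was also picked after its values were seen, differed by 1.99 with passage in DPCs and by 1.09 in DSCs, in the direction of Ltbp1.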
